A study of Mus musculus with 8 samples.

Results

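The genes described are Dlg4, which encodes the postsynaptic scaffold PSD-95, its paralogs Dlg1, Dlg2 and Dlg3, the related scaffold gene Mpp2, the kinase genes Camk2a and Camk2b, and the adhesion genes Nlgn1 and Nlgn2. They were taken by gene name from the counts per gene of cortical RNA-seq libraries, and each name had 1 row, giving 9 of the 54532 genes listed. The libraries came from 8-mo-old C57BL/6 mice, 4 PS19 mice and 4 Adrb1-A187V;PS19 mice, with 1 library of total RNA per mouse. PS19 mice carry human 1N4R tau with the P301S mutation behind the mouse prion protein promoter. The Adrb1-A187V;PS19 mice, labelled Adrb1+/m;PS19, carry the same transgene and 1 mutant copy of Adrb1, the gene of the β1-adrenergic receptor, which was made by CRISPR/Cas9 knock-in. Both groups therefore carried mutant human tau, and mice without the transgene, or with the Adrb1 mutation alone, were not analysed here. According to the study's methods, male mice and littermate controls were the rule, and the labels give neither sex nor litter. The comparison bears on whether the Adrb1 mutation, in mice with tau pathology, was accompanied by a change in the RNA of the scaffold to which the receptor binds and of the proteins around it.

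PSD-95 is the most studied member of the membrane-associated guanylate kinases (MAGUKs), proteins that line the inner face of excitatory synapses. Their PDZ domains grip the free carboxyl ends of receptors, channels and adhesion proteins, and so hold them opposite the site of transmitter release. CaMKII, the kinase built from the products of Camk2a and Camk2b, is among the most abundant proteins of the postsynaptic density and is needed for long-term potentiation. Neuroligins reach across the cleft to presynaptic neurexins. Nlgn1 encodes the neuroligin typical of excitatory synapses, and Nlgn2 the one typical of inhibitory synapses. The values below are RNA levels of whole genes, so they measure neither protein nor splice forms.

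Because PDZ domains grip carboxyl ends, the ends of the coding sequences are printed here, although no contact was measured. They were read from GENCODE M21 transcripts on GRCm38, each 5′ to 3′ on the gene's own strand, as the 18 bases before the stop codon with the last 4 codons in capitals. Those codons spell threonine, threonine, arginine and valine in both neuroligins, and glutamate, serine, lysine and valine in the β1-adrenergic receptor.
Nlgn1, chr3:25433641-25433658, minus strand: cattcaACAACCAGGGTA
Nlgn2, chr11:69825206-69825223, minus strand: cactccACCACTCGGGTA
Adrb1, chr19:56723752-56723769, plus strand: tcctcgGAGTCCAAGGTG
All 4 complete coding transcripts of Nlgn1, both of Nlgn2 and the single transcript of Adrb1 ended in these letters. An end of this kind, with a serine or threonine 2 residues before a final valine, is the textbook partner of the PSD-95 PDZ domains.

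PSD-95 is fixed to the membrane by fatty acids on cysteines near its start, so the first 30 coding bases of the Dlg genes are shown with the cysteine codons in capitals.
Dlg4, chr11:70018920-70018949, plus strand: atggacTGTctcTGTatagtgacaaccaag
Dlg2, chr7:91091007-91091036, plus strand: atgttctttgcaTGTtatTGTgcactccgg
Dlg3, chrX:100768072-100768101, plus strand: atgcacaagcaccagcacTGCTGTaagTGC
Dlg1, spliced from more than 1 exon: atgccggtccggaagcaagatacccagaga
Cysteine codons stood at positions 3 and 5 in Dlg4, at 5 and 7 in Dlg2, and at 7, 8 and 10 in Dlg3, while the Dlg1 start held none in its first 10 codons. These starts belong to 4 of 9 complete coding transcripts of Dlg4, 2 of 5 of Dlg2, 3 of 4 of Dlg3 and 5 of 6 of Dlg1. The remaining transcripts of the 4 genes began with other coding bases that had no cysteine codon in the first 10. Counts per gene sum over these forms, so the share of transcripts with a given start cannot be read from them. Nor do the bases tell which of the cysteines shown carry a fatty acid.

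The libraries held between 14653222 and 21223754 counts in genes. All values were normalised with TMM factors, which lay between 0.990 and 1.01, and are given on the CPM scale. CPM here divides a count by the library's total over tested genes, scaled by its TMM factor. All 9 genes passed the filter on low counts, and the smallest count of any of them in a mouse was 1153, for Nlgn1. Between mice of a genotype, chi-square per degree of freedom was 4.82 to 10.1, above counting noise, so each mouse was counted as 1 replicate. In the edgeR fit, the p-values set each genotype difference against the spread between mice. That spread is estimated with help from all genes tested, not from the gene alone. The labels name no batch of extraction or sequencing, so values within batches could not be computed. Pan-neuronal markers were at high levels in every mouse, with a summed level of 6413 to 7086 CPM in PS19 and 6373 to 7041 CPM in Adrb1-A187V;PS19 mice over 7 genes. Of the marker lists, those of choroid plexus and striatal neurons differed most widely among the mice. Striatal markers summed to 769.3 CPM in mouse m677 and to 1735 CPM in mouse m671, and choroid plexus markers to 24.99 CPM in m677 and 583.8 CPM in m658. Other lists varied too. Microglia markers summed to 248.1 CPM in m661 and 426.4 CPM in m659, and hippocampal markers to 102.6 CPM in m665 and 177.9 CPM in m658. The astrocyte marker Gfap ran from 181.7 CPM in m661 to 837.9 CPM in m660. All 5 choroid plexus and all 7 striatal markers passed the count filter, and none had an unadjusted p under 0.05 between genotypes.

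The plot of normalised counts by mouse gives every value of the 9 genes. Across them, 1 had an unadjusted p-value under 0.05 in edgeR's quasi-likelihood test, which was Mpp2, lower in Adrb1-A187V;PS19 mice. Among all 17195 genes tested, 2.80% passed the same threshold, 245 higher and 236 lower. Mpp2 was also the 1 gene of the 9 whose values did not overlap between genotypes, where 2.02% of all genes tested did not overlap. Adjusted over all genes tested, none of the 9 genes passed, the adjusted p being 0.9996 for each. With all mice, no gene tested passed after adjustment in edgeR with the count filter, where 481 had an unadjusted p under 0.05. The same held in DESeq2, where 555 did. In 6 of 9 genes the mean difference was negative, with a median of −0.03 on the log2 scale and a range of −0.11 to 0.03, beside a median of 0.0005 and 49.8% negative over all genes tested. The 95% intervals of the other 8 genes lay between an 11.8% decrease (Dlg3) and an 11.9% increase (Camk2b). Larger changes lay outside the interval of each. Single intervals were narrower, as with −11.8% to 2.84% for Dlg3 and −5.50% to 7.96% for Dlg2. Each of the 8 included no change, so none of these differences could be told from no change with 4 mice per genotype.

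**Figure D1:**
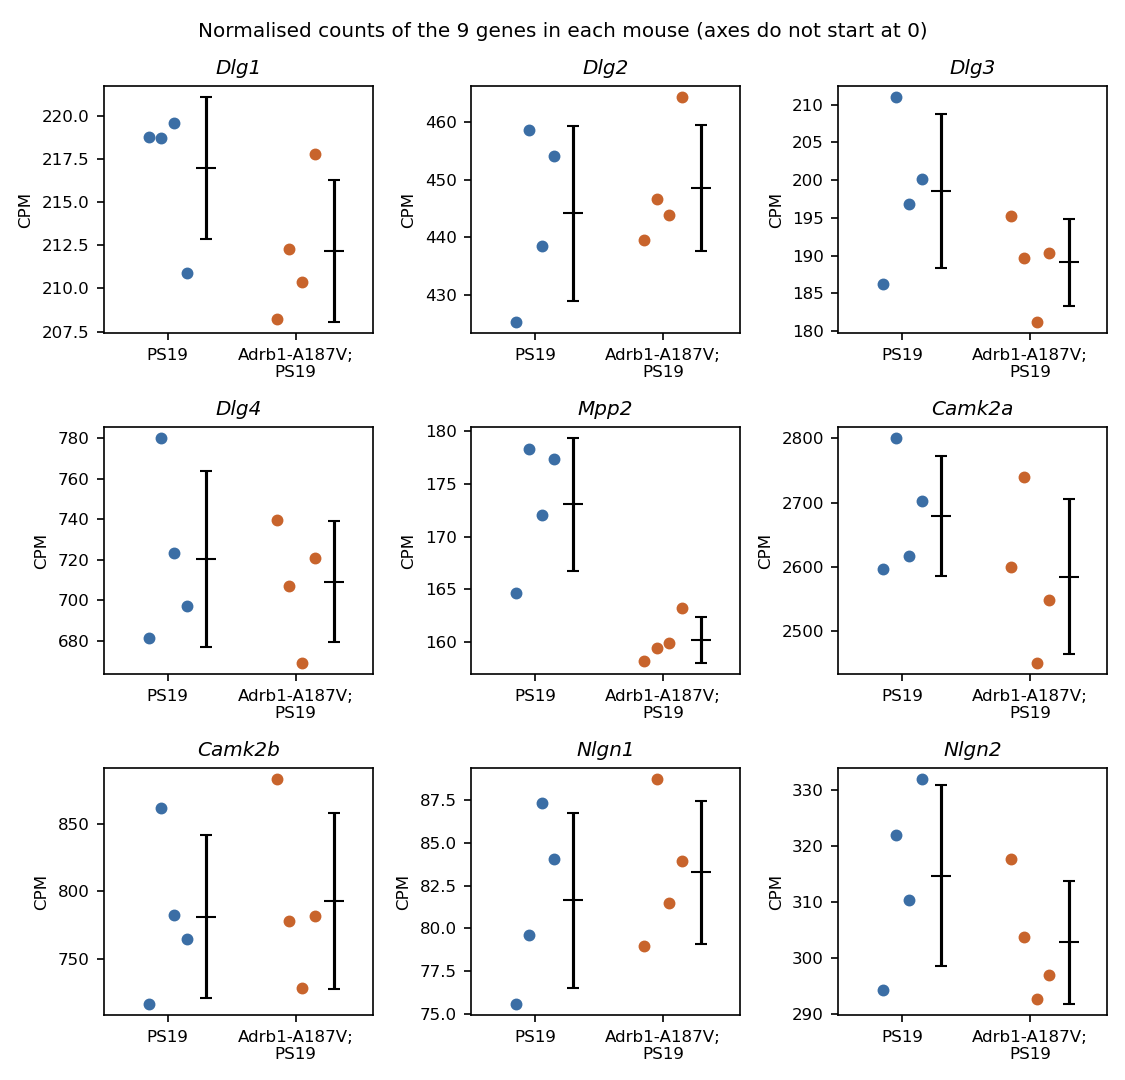
Normalised counts (CPM, vertical axes that do not start at 0) of the 9 genes in each PS19 mouse (blue) and each Adrb1-A187V;PS19 mouse (orange), with the mean and SD of 4 mice as black bars. The Mpp2 values of the genotypes do not overlap, and those of the other 8 genes do.

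Dlg4 (chromosome 11 of GRCm38, 70016942 to 70047522, plus strand) was measured most deeply of the scaffold genes, with 11121 to 15323 counts per mouse. Values per mouse are given in the order m677, m668, m665 and m659 for PS19 and m671, m661, m660 and m658 for Adrb1-A187V;PS19 mice throughout. Dlg4 stood at 681.1, 780.0, 723.3 and 696.9 CPM in PS19 mice and at 739.6, 707.0, 669.0 and 720.6 CPM in Adrb1-A187V;PS19 mice. The highest value was in a PS19 mouse and the lowest in an Adrb1-A187V;PS19 mouse, and the other 6 values were mixed. The PS19 mean was 720.3 ± 43.4 CPM and the mutant mean 709.1 ± 29.9 CPM (SD, n = 4 each). The log2 fold change was −0.02 (standard error 0.05, edgeR, unadjusted p = 0.671), and the 95% interval ran from −8.91% to 6.398% of the level. Its sign rested on single mice and turned to 0.018 without m668 and to 0.0047 without m660.

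Dlg1, Dlg2 and Dlg3 encode SAP97, PSD-93 and SAP102, which share the domain order of PSD-95 and differ in where and when they serve glutamate receptors. Dlg1 (chromosome 16, 31663443 to 31875129, plus strand) had 218.8, 218.7, 219.6 and 210.9 CPM in PS19 mice and 208.2, 212.3, 210.4 and 217.8 CPM in Adrb1-A187V;PS19 mice. PS19 mice m677, m668 and m665 lay within 1 CPM of each other and above the whole mutant group, and the PS19 mouse m659 lay among the mutant values. The log2 fold change of Dlg1 was −0.03 (standard error 0.04, unadjusted p = 0.475). Dlg2, a gene of great genomic length (chromosome 7, 90476672 to 92449247, plus strand), had 425.3, 458.5, 438.5 and 454.1 CPM in PS19 and 439.5, 446.6, 443.8 and 464.3 CPM in Adrb1-A187V;PS19 mice. The mutant values fell inside the PS19 range but for m658, and the log2 fold change was 0.01 (standard error 0.04, unadjusted p = 0.751). Leaving out m677 or m658 brought it to −0.0046 or −0.0029. Dlg3 lies on the X chromosome (100767722 to 100818410, plus strand), and loss of its human counterpart causes intellectual disability. It had 186.2, 211.0, 196.8 and 200.1 CPM in PS19 mice and 195.2, 189.7, 181.2 and 190.3 CPM in Adrb1-A187V;PS19 mice. PS19 mice m668, m665 and m659 stood above all mutant mice, and PS19 mouse m677 stood below 3 of them. The log2 fold change of Dlg3 was −0.07 (standard error 0.05, unadjusted p = 0.194).

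Mpp2 (chromosome 11, 102057015 to 102088515, minus strand) encodes a MAGUK of the p55 type that is found with PSD-95 at the postsynaptic membrane. It had 164.6, 178.3, 172.0 and 177.3 CPM in PS19 mice and 158.2, 159.5, 159.9 and 163.3 CPM in Adrb1-A187V;PS19 mice. All 4 mutant values lay below all 4 PS19 values, with a gap of little more than 1 CPM between PS19 mouse m677 and mutant mouse m658. The PS19 mean was 173.1 ± 6.27 CPM and the mutant mean 160.2 ± 2.17 CPM (SD, n = 4 each). Mpp2 fell by 7.41% in the fitted level, with a 95% interval of −13.7% to −0.683%, or −0.11 on the log2 scale (standard error 0.05, edgeR, unadjusted p = 0.0338, adjusted p = 0.9996). The difference kept its direction under all 15 alternatives, between −0.13 and −0.10, with unadjusted p-values of 0.0176 to 0.0832. It passed the threshold no longer when the count filter was dropped, where edgeR's unadjusted p was 0.0772. The same held when 1 of 6 mice was left out, edgeR's unadjusted p being 0.0823 without m668, 0.0509 without m665, 0.0832 without m659, 0.0593 without m671, 0.0644 without m661 and 0.0651 without m660. In whole tissue, fewer cells of a type and less RNA per cell cannot be told apart. Beside this difference, the 7 markers of excitatory neurons were all lower in Adrb1-A187V;PS19 mice, with 3 of 7 past an unadjusted p of 0.05, a median of −0.17 on the log2 scale and a summed level of 1531 to 1777 CPM in PS19 and 1372 to 1593 CPM in Adrb1-A187V;PS19 mice. Of 7 markers of inhibitory neurons, 2 were higher and 1 lower at that threshold, namely Gad2 (0.24 on the log2 scale), Slc32a1 (0.18) and Vip (−0.19), with a summed level of 1054 to 1108 CPM in PS19 and 1065 to 1190 CPM in Adrb1-A187V;PS19 mice. No marker of either list passed after adjustment, and 2.80% of all genes tested passed the unadjusted threshold. The part of either list in the Mpp2 difference was not tested.

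CaMKII was the gene family with the highest levels here. Camk2a (chromosome 18, 60925618 to 60988152, plus strand), which encodes the α subunit of forebrain excitatory neurons, had 2597, 2800, 2617 and 2703 CPM in PS19 mice and 2600, 2740, 2451 and 2549 CPM in Adrb1-A187V;PS19 mice. Mutant mice m660 and m658 lay below all PS19 mice, and the log2 fold change was −0.05 (standard error 0.04, unadjusted p = 0.269). Camk2b (chromosome 11, 5969644 to 6066362, minus strand) encodes the β subunit, which also binds actin in dendritic spines. It had 717.1, 861.6, 782.3 and 764.9 CPM in PS19 mice and 882.8, 778.3, 728.5 and 781.8 CPM in Adrb1-A187V;PS19 mice. Both genotypes had 1 mouse far above the others, m668 and m671. The log2 fold change of Camk2b was 0.02 (standard error 0.07, unadjusted p = 0.756) and turned to −0.017 without m677 and −0.036 without m671.

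The values of both neuroligin genes overlapped between the genotypes. Nlgn1 (chromosome 3, 25426215 to 26332460, minus strand) had 75.6, 79.6, 87.3 and 84.1 CPM in PS19 mice and 78.9, 88.7, 81.5 and 83.9 CPM in Adrb1-A187V;PS19 mice. The values interleaved, and the log2 fold change was 0.03 (standard error 0.06, unadjusted p = 0.647), turning to −0.0059 without m677 and −0.0042 without m661. Nlgn2 (chromosome 11, 69823122 to 69837784, minus strand) had 294.4, 322.0, 310.4 and 331.9 CPM in PS19 mice and 317.7, 303.7, 292.7 and 297.0 CPM in Adrb1-A187V;PS19 mice. Mutant mice m661, m660 and m658 lay below 3 PS19 mice, and PS19 mouse m677 lay among the lower ones. The log2 fold change of Nlgn2 was −0.06 (standard error 0.05, unadjusted p = 0.295). Adrb1 itself, whose coding sequence the knock-in alters, had 32.3, 39.4, 41.2 and 34.2 CPM in PS19 mice and 39.5, 36.0, 30.7 and 33.9 CPM in Adrb1-A187V;PS19 mice, which was −0.07 on the log2 scale (standard error 0.09, unadjusted p = 0.458). Single mice moved the Adrb1 value, to −0.0097 without m665, −0.013 without m660, −0.038 without m668, −0.127 without m677 and −0.135 without m671. A count per gene does not tell the mutant from the normal copy, so it does not check the genotype.

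**Figure D2:**
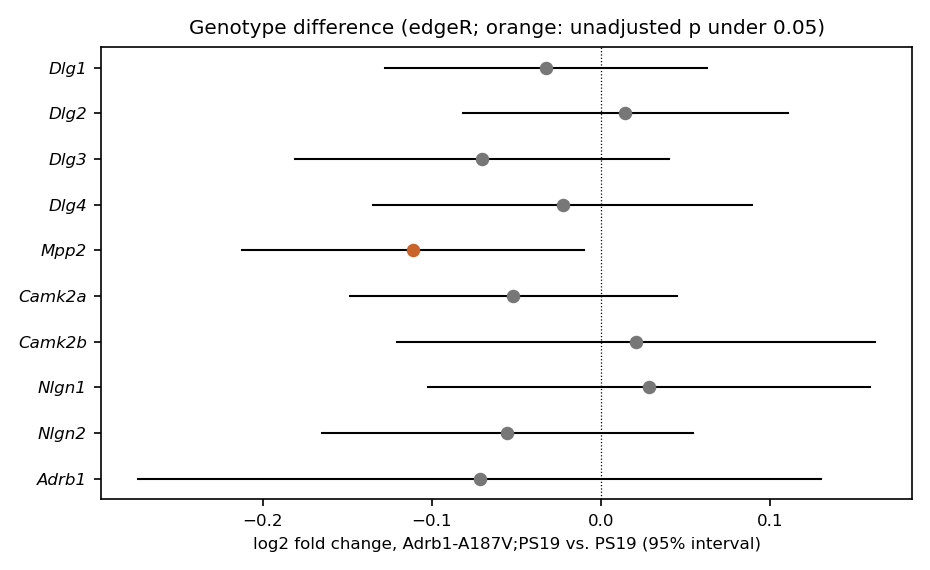
Log2 fold change of each gene in Adrb1-A187V;PS19 vs. PS19 mice (horizontal axis) from edgeR's quasi-likelihood fit, with 95% intervals as lines. Of the 10 intervals shown, that of Mpp2, −0.21 to −0.01, leaves out 0, and Adrb1, with the lowest counts, has the widest.

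Levels can be set side by side between genes only per length, and the gene length column of the table equalled the GENCODE M21 exon length for all 9 genes. Per kilobase, Camk2a stood at 352.6 ± 14.97 CPM (SD, n = 8 mice), Camk2b at 86.3 ± 6.37, Dlg4 at 53.9 ± 2.64, Nlgn2 at 53.4 ± 2.46 and Mpp2 at 34.7 ± 1.69. Dlg3 followed at 33.2 ± 1.57, Dlg2 at 27.4 ± 0.767, Dlg1 at 19.99 ± 0.427 and Nlgn1 at 6.14 ± 0.330 CPM per kilobase. Neighbours in this order were apart in all 8 mice except for a pair of ties. Dlg4 stood above Nlgn2 in 6 of 8 mice, with a ratio of means of 1.01, and Mpp2 above Dlg3 in 7 of 8 mice, with a ratio of 1.05. From the highest to the lowest level per length, Camk2a over Nlgn1, the ratio was 57.4. By CPM alone Camk2a ranked 14 among the genes tested and Dlg4 ranked 128. In CPM, Dlg2 moves up to place 4 and Mpp2 down to place 8 of the 9, since their gene lengths are 16280 and 4807 bases. The length counts every annotated exon, used or not, which lowers the level per length of genes with many unused exons.

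**Figure D3:**
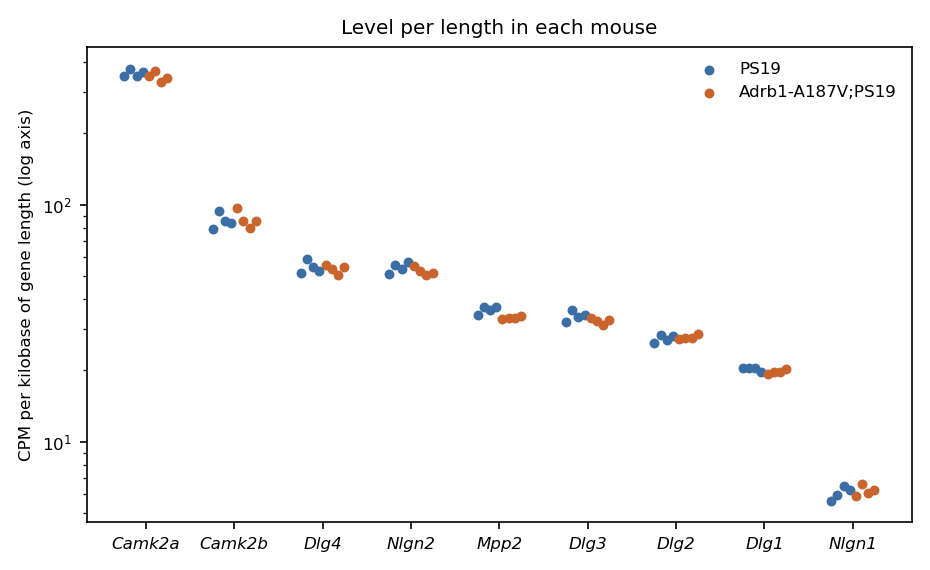
Level of each gene in CPM per kilobase of gene length (log axis), 1 point per mouse, PS19 in blue and Adrb1-A187V;PS19 in orange. The genes run from Camk2a at 352.6 to Nlgn1 at 6.14, and the points of Dlg4 and Nlgn2, and of Mpp2 and Dlg3, share their range.

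Within the Dlg family, PSD-95 RNA made up the largest part per length. Dlg4 held a mean of 40.1% of the family's sum (range 39.1% to 41.2% over 8 mice), Dlg3 24.7% (24.0% to 25.5%), Dlg2 20.4% (19.6% to 21.2%) and Dlg1 14.9% (14.2% to 15.7%). The Dlg3 part was 25.01 ± 0.403% in PS19 and 24.3 ± 0.280% in Adrb1-A187V;PS19 mice (SD, n = 4 each). Ratios of 2 genes within a library do not depend on its scaling, and 5 were compared by 2-sided exact permutation tests over 70 labellings of the mice, the smallest possible p being 0.0286. The log2 ratio of Dlg3 to Dlg4 was −1.86 ± 0.04 in PS19 and −1.91 ± 0.02 in Adrb1-A187V;PS19 mice (SD, n = 4 each), a difference of −0.05 (exact permutation test, p = 0.0571, adjusted over the 5 ratios 0.286). Leaving out m668 brought the difference to −0.06 (exact permutation test, p = 0.0286, the smallest that 3 against 4 mice can give), and leaving out m659 brought it to −0.03 (p = 0.0857). Over all 8 mice left out in turn, the exact permutation p reached 0.143, without m671 or m658. The ratio of Dlg1 to Dlg4 differed by −0.01 (p = 0.743), Dlg2 to Dlg4 by 0.04 (p = 0.457), Camk2a to Camk2b by −0.07 (p = 0.371) and Nlgn1 to Nlgn2 by 0.08 (p = 0.286) on the log2 scale in the same exact tests, with adjusted values of 0.571 to 0.743. Per length, Camk2a exceeded Camk2b 4.198 times in PS19 and 3.99 times in Adrb1-A187V;PS19 mice.

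The genes differed in how much they varied from mouse to mouse. Dlg1 had the smallest coefficient of variation, 2.14% over 8 mice, where counting noise alone would give 1.62%. Of the 1873 genes tested with a mean CPM within a factor of 2 of that of Dlg1, 1.33% varied less, and their median was 5.17%. Dlg2 varied by 2.80%, and 8.86% of genes of like abundance varied less. Dlg4, at 4.90%, was close to the median of its like, 4.997%. Camk2b varied most, at 7.39%, more than 79.5% of genes of like abundance, with 1.23 times between its highest and lowest mouse. Mpp2 varied by 4.87% over 8 mice and by 2.82% within the genotypes. Some mice were high or low for several genes at once. Mouse m668 stood above the mean of 8 mice for 8 of 9 genes, m677 for 1 and m660 for none.

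**Figure D4:**
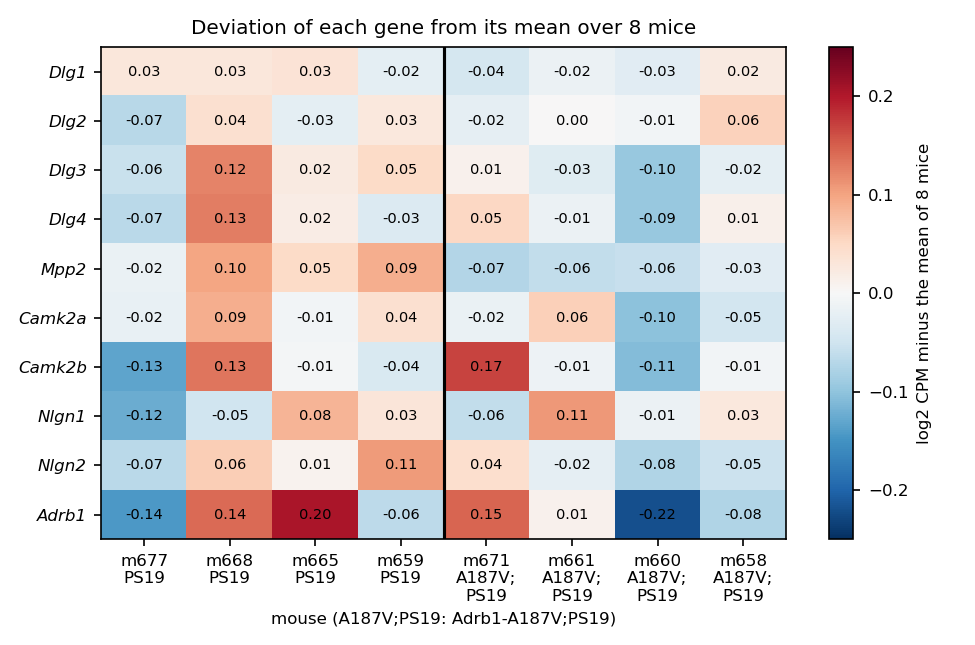
Log2 CPM of each gene minus its mean over 8 mice (color scale and printed values), PS19 mice left and Adrb1-A187V;PS19 mice right of the black line. Column m668 is positive but for Nlgn1, column m660 is negative for every gene, and the Mpp2 row is negative in all 4 Adrb1-A187V;PS19 mice and in m677 (−0.02).

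Over the 8 mice, log2 CPM of Dlg4 was compared with that of the other 8 genes and Adrb1, 9 relations in all, with exact permutation p-values over pairings and Benjamini-Hochberg adjustment over the 9. Dlg4 and Camk2b rose and fell together (Pearson's r = 0.897, exact permutation p = 0.0024, adjusted 0.0214, and Spearman's rho = 0.952, p = 0.0011, adjusted 0.0103). Without m668 and m660, the mice farthest from the median of Dlg4, r was 0.907 (exact permutation p = 0.0083), and on deviations from the genotype means it was 0.932. Dlg4 and Dlg3 had r = 0.846 (exact permutation p = 0.0101, adjusted 0.0359) and rho = 0.738 (p = 0.0458, adjusted 0.1375). Without m668 and m660 that r was 0.379 (exact permutation p = 0.454), so its size depended on those mice. Leaving out the mice farthest from the median of Dlg4 narrows its range, which by itself can lower r. On deviations from the genotype means, with all 8 mice, r with Dlg3 was 0.915, and with DESeq2's size factors 0.855. Dlg4 and Adrb1 had r = 0.817 (exact permutation p = 0.0120, adjusted 0.0359) and rho = 0.833 (p = 0.0154, adjusted 0.0692), with r = 0.783 without m668 and m660 (exact permutation p = 0.0722). The relation of Dlg4 to Nlgn1 was near 0, with r = −0.0045 and rho = −0.024 (exact permutation p = 0.991 and 0.977, adjusted 0.991 and 0.977). The other 5 genes had r between 0.272 for Dlg1 and 0.618 for Camk2a with exact permutation p-values of 0.101 to 0.520, and for Dlg1, Mpp2 and Camk2a the sign turned without m668 and m660. Beside these relations, the striatal marker sum was 1567 CPM in m668 and 1735 CPM in m671, the mice with the highest Dlg4 and Camk2b. It was 769.3 CPM in m677 and 1198 CPM in m660, the mice with the lowest, and 1131, 831.4, 797.9 and 1434 CPM in m665, m659, m661 and m658. The m660 sum was above those of m665, m659 and m661, and no correlation of the sums with Dlg4 was computed. Astrocyte markers summed to 1742 to 2034 CPM in m668, m665, m671 and m661, and to 2516 to 2694 CPM in the other 4 mice. Microglia markers summed to 248.1 to 307.5 CPM in m668, m665, m671 and m661, and to 366.0 to 426.4 CPM in the other 4 mice. Over the whole striatal list none of 7 markers passed an unadjusted p of 0.05 between genotypes, all 7 had a higher mean in Adrb1-A187V;PS19 mice, and the sums ranged from 769.3 to 1567 CPM in PS19 and 797.9 to 1735 CPM in Adrb1-A187V;PS19 mice. The part of striatal tissue, of astrocytes or of microglia in these relations was not tested.

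**Figure D5:**
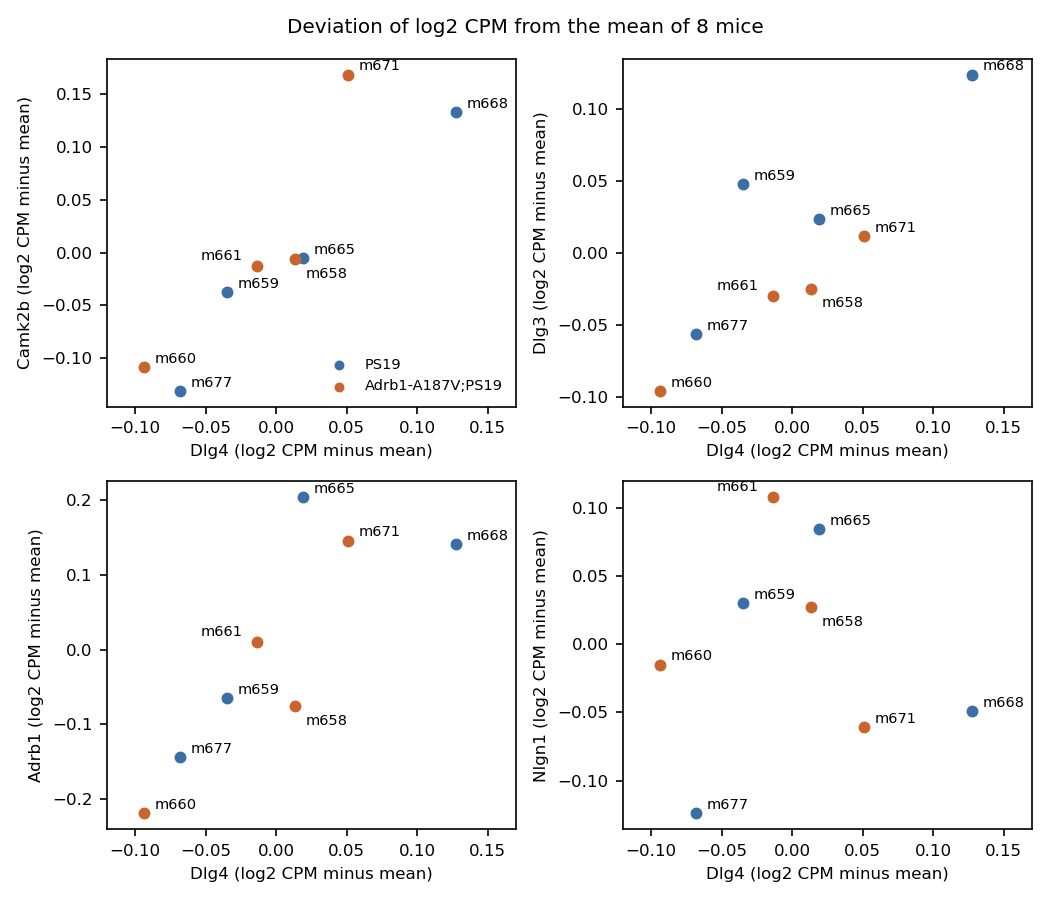
Log2 CPM of Camk2b, Dlg3, Adrb1 and Nlgn1 (vertical axes) against Dlg4 (horizontal axes), each minus its mean over 8 mice, with PS19 mice in blue and Adrb1-A187V;PS19 mice in orange. Camk2b follows Dlg4 from m677 and m660 to m668 and m671 (r = 0.897), Nlgn1 does not (r = −0.0045).

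Many genes followed Dlg4 at least as closely. Among 14487 protein-coding genes, Camk2b ranked 50 and Dlg3 161 by r to Dlg4. Adrb1, with a smaller r than Dlg3, ranked below that place. The 5 most like it were R3hdm4 (r = 0.961), Ccdc148 (r = 0.958), Hs3st5 (r = 0.958), Irf2bpl (r = 0.955) and Ubfd1 (r = 0.951), and the 5 most opposed were Aebp1 (r = −0.981), Zic5 (r = −0.977), Shmt2 (r = −0.973), Il6st (r = −0.952) and Ripor3 (r = −0.952). The lowest mean levels among them were 0.618 CPM for Ripor3, 5.10 CPM for Zic5 and 7.02 CPM for Hs3st5. At the level of Ripor3 few counts stand behind its r. These are descriptions over the same 8 libraries, chosen as extremes of many, and carry no test.

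The partners of the family were followed through 7 lists with 102 genes tested, of which 1 rose and 4 fell at an unadjusted p under 0.05 and none passed after adjustment over all genes, beside 2.80% of all genes tested at the unadjusted threshold. Their median log2 fold change was −0.02, and 60 of 102 were lower in Adrb1-A187V;PS19 mice, beside 49.8% of all genes tested. Of 15 membrane proteins whose ends PDZ domains of the family bind, none rose and 1 fell, which was Cacng3, an auxiliary subunit of AMPA receptors. Cacng3 went from 103.2 ± 3.32 to 94.6 ± 1.61 CPM (SD, n = 4 each), which was −0.13 on the log2 scale (standard error 0.05, edgeR, unadjusted p = 0.0233). Its values did not overlap between the genotypes, as was so for 2.02% of all genes tested. Without m677 edgeR's unadjusted p was 0.0654, and with no count filter it was 0.0605. The median of that list was −0.04. Of 16 enzymes and adaptors of the postsynaptic density, none rose and 2 fell, the scaffold genes Shank2 and Shank1, whose products link the PSD-95 complex to Homer and actin. Shank2 went from 228.7 ± 15.7 to 205.7 ± 12.9 CPM (SD, n = 4 each), which was −0.15 on the log2 scale (standard error 0.06, unadjusted p = 0.0276). Shank1 went from 635.2 ± 23.9 to 580.6 ± 48.6 CPM (SD, n = 4 each), which was −0.13 on the log2 scale (standard error 0.06, unadjusted p = 0.0441). Values of both overlapped between the genotypes, and 13 of the 16 genes of this list were lower, with a median of −0.04. These genes were measured in the same libraries, so their directions are not separate observations. The 7 excitatory neuron markers described with Mpp2 were lower too, by a median of −0.17, and their part in this list was not tested. For Shank2, edgeR's unadjusted p was 0.0521 without m668, 0.103 without m659 and 0.0890 without m671. For Shank1, it was 0.0745 without m665, 0.0763 without m659, 0.0795 without m658, 0.1001 without m668, 0.108 without m660 and 0.1297 without m671.

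Of 19 trans-synaptic adhesion partners, 1 rose and none fell, and the median was −0.003. The gene that rose was Mdga2, whose product binds neuroligins on the same cell and keeps them from neurexins. Mdga2 had 56.3, 59.9, 58.9 and 54.5 CPM in PS19 and 64.6, 60.2, 62.9 and 65.4 CPM in Adrb1-A187V;PS19 mice, which was 0.14 on the log2 scale (standard error 0.06, edgeR, unadjusted p = 0.0250). These values did not overlap between the genotypes, beside 2.02% of all genes tested without overlap. EdgeR's unadjusted p rose to 0.0536 without m677, 0.0771 without m659, 0.0532 without m671 and 0.0708 without m658. Of 15 genes of CaMKII isoforms, inhibitors and calmodulin, with related kinases, none rose and 1 fell, with a median of −0.02. That gene was Camk1g, a calmodulin-dependent kinase that is not part of CaMKII, which went from 29.8 ± 2.48 to 25.2 ± 4.00 CPM (SD, n = 4 each), which was −0.25 on the log2 scale (standard error 0.10, unadjusted p = 0.0349). Leaving out m665, m659, m661 or m660 gave edgeR's unadjusted p of 0.0736, 0.103, 0.0994 or 0.117. None of 13 other MAGUK scaffolds (median 0.02) or 11 genes of the inhibitory postsynapse (median −0.005) passed in either direction. Nor did any of 13 genes of enzymes that add or remove fatty acids on proteins (median 0.0008). In the first of these lists the smallest unadjusted p in edgeR's test was 0.147, for the p55 scaffold gene Mpp1. Its log2 fold change was 0.10 (standard error 0.07) with all mice and 0.067 without m671. In the second, edgeR's smallest unadjusted p was 0.211, for Gphn, the scaffold of inhibitory synapses, with a log2 fold change of 0.09 (standard error 0.07). Leaving out m677 or m659 gave log2 fold changes of 0.049 or 0.050. In the third, edgeR's smallest unadjusted p was 0.315, for the thioesterase gene Lypla1, with a log2 fold change of 0.09 (standard error 0.09). That log2 fold change was 0.026 without m668 and 0.150 without m659. The lists describe these libraries by counts and medians, and no list as a whole was tested.

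How far reads of one gene could be counted for another was read from the annotation. Of 45 pairs among the 9 genes and Adrb1, 4 shared any stretch of 31 bases, the longest shared stretch was 35 bases, and none shared a stretch as long as a 150-nt read. Dlg3, Dlg4, Mpp2, Camk2b and Nlgn2 overlap no other gene of the table. Dlg2 overlaps 30 genes, of which none held more than 0.377% of its counts. One overlapping gene held more than 1%, the antisense gene A830092H15Rik at the 5′ end of Nlgn1 (chromosome 3, 26331150 to 26333377), with 193 counts over 8 mice or 1.64% of those of Nlgn1. The strand setting of the counting is not given in the sources used here, so reads of this antisense gene and of Nlgn1 cannot be told apart.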

How the data were processed

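Cortical RNA of 8 mice, 1 library each, was sequenced as 150-nt paired ends. Per the labels and the study's methods, the authors aligned reads to GRCm38 with HISAT2 2.0.5 and counted them per gene with featureCounts 1.5.0-p3. The deposited table holds raw counts, without normalization, beside a gene length column in bases. Strand, pairing and multiple-mapping settings are not given in the sources used here.

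Genes kept by filterByExpr (17195 of 54532) were fitted with edgeR 4.0.16 (glmQLFit and glmQLFTest with TMM factors, without covariates, R 4.3.3), and p-values were adjusted by Benjamini-Hochberg across every gene tested. The standard error is the log2 fold change over the square root of F. The study's selection, an unadjusted p under 0.05, was used for counts of genes. Log2 CPM used a prior count of 2, and level per length is CPM over gene length in kilobases. The fit was tested on simulated data. Alternatives were DESeq2 1.42.0, limma-voom (limma 3.58.1), DESeq2 size factors, 2 count filters, protein-coding genes alone, 1 surrogate variable (sva 3.50.0) and leaving out each mouse.

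The members and lists were chosen with earlier results of these data known. The genes named are the 9 members, Adrb1, up to 3 genes per list past the threshold or else the 1 with the smallest p, the 5 with the highest and 5 with the lowest r to Dlg4, and overlapping genes with more than 1% of a member's counts. Markers of 11 cell types and regions were summed as CPM. Sequences came from GENCODE M21. Proteins and reads were not analysed here.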

Additional observations from a re-analysis of the deposited data

Results flagged for a closer look

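Dlg1 in PS19 mouse m659 lay far from the other PS19 mice, at 210.9 CPM, where the next value was 218.7 and the highest 219.6 CPM. The gap to the nearest mouse was 0.903 of the range of the 4 mice, above Dixon's critical value of 0.829. This was 1 of 30 groups of 4 values examined, and about 1 in 20 groups passes by chance.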

How the results depend on the processing

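No paired analysis was possible because the mice carry individual numbers that the genotypes do not share, and litters are not labelled. Of 342 alternative values with a p, 297 kept their direction and their side of the 0.05 threshold, 28 lost an unadjusted p under 0.05, 1 gained it and 16 changed sign. Of 30 alternative counts of genes, 22 stayed within 1.5 times and 8 moved further. The number of the 9 genes past an unadjusted p of 0.05, 1 with all mice, was 0 with no filter beyond 1 count and between 0 and 1 when a mouse was left out. Over all genes the number was 481, and 1366 with no filter, where 66 genes passed after adjustment. In edgeR, 1 gene passed after adjustment without m661 and 2 without m658, and none without any other mouse. With all mice, no gene passed after adjustment by edgeR or limma-voom (492 unadjusted) on the 17195 filtered genes, or by DESeq2 (555 unadjusted) on 33611 genes with a count. Leaving out a mouse gave log2 fold changes of −0.0046 to 0.030 for Dlg2, −0.047 to 0.018 for Dlg4, −0.036 to 0.071 for Camk2b and −0.0059 to 0.064 for Nlgn1, and differences of −0.046 to 0.020 for the log2 ratio of Dlg1 to Dlg4. Without the 2 mice farthest from the median of Dlg4, its r was −0.312 with Dlg1, −0.345 with Mpp2, −0.296 with Camk2a and 0.272 with Nlgn1. The r with Nlgn1 was 0.030 on deviations from genotype means and 0.011 with DESeq2 size factors. The cause was not tested for any of these. The depth gives counting noise of 0.463% (Camk2a) to 2.61% (Nlgn1) of a value.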
